A study of Mus musculus with 21 samples.

Results

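The members described here are the mouse tRNA genes whose names end in AlaAGC, AlaCGC or AlaTGC, the 3 alanine isoacceptors, together with the reads and cytosines assigned to them. They were selected by name alone and comprised 398 of the 3283 predicted tRNA gene loci in the Pol III table. Of these, 327 were AlaAGC, 17 AlaCGC and 54 AlaTGC, while 63 predicted loci named AlaGGC lay outside the rule. In the tRNA-seq table, 70 of 1143 genes with counts were members, and 273 of 32264 distinct read sequences were listed at them. Positions in the mm9 build were given for 15 of the members, and 133 of their 281 cytosines were listed in at least 1 bisulphite library, out of 897815 cytosines listed in the whole series.

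All samples were total back skin of male mice at postnatal day 25, in the growth phase of the hair cycle, on a C57Bl6/J CBA F1 background. NSun2-/- mice carried a gene-trap allele of NSun2 (clone D014D11) and wild-type (WT) mice came from the same breedings. RNA bisulphite sequencing and tRNA-seq each comprised 4 WT and 4 NSun2-/- libraries. Pol III ChIP-seq, with an antibody against the POLR3A subunit, comprised 2 libraries of WT and 1 of NSun2-/- skin, with an input for either genotype, each from the pooled skin of 3 mice. The title of the first WT library reads PolII, although its antibody label, like that of the other two, names POLR3A. The labels call the libraries of 1 group independent biological replicates.

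RNA polymerase III transcribes tRNA genes from promoter elements that lie inside the gene, the A box and the B box, so that a copy elsewhere in the genome can keep its promoter. Mammalian genomes hold many copies and remnants of tRNA genes, and the rodent ID elements, a family of short interspersed repeats, are related to tRNA Ala. The 3 anticodons read the 4 alanine codons, since the adenosine at the first anticodon position of AlaAGC is deaminated to inosine. NSun2 methylates cytosines at the border of the variable loop and the T arm of many tRNAs, at positions 48 to 50, to 5-methylcytosine (m5C), and tRNAs can be cut in the anticodon loop into 5′ and 3′ fragments.

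The located genes fell into 2 forms, which the sequences below show because the later results divide along them. They are the mm9 sequences of the gene strand, with the anticodon and the bases at positions 48 to 50 in capitals. Positions are tRNA positions counted from 1 at the first nucleotide of the gene, and genes of 72 nt lack 1 nucleotide of the D loop that genes of 73 nt have.
chr11.trna2022-AlaTGC, chr11:48647931-48648002, minus strand: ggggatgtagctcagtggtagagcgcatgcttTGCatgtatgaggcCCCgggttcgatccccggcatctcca
chr13.trna955-AlaCGC, chr13:23530566-23530637, minus strand: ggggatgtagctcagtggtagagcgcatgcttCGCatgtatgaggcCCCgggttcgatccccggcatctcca
chr2.trna263-AlaCGC, chr2:57034489-57034560, plus strand: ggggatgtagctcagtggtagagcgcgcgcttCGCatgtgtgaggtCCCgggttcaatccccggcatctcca
chr13.trna66-AlaAGC, chr13:21314455-21314526, plus strand: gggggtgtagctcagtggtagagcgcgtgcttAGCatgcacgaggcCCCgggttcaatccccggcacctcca
chr13.trna71-AlaAGC, chr13:21351637-21351708, plus strand: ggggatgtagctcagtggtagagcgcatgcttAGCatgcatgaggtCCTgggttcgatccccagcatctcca
chr5.trna110-AlaAGC, chr5:31190888-31190960, plus strand: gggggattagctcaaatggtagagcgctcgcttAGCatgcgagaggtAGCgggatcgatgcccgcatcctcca
chr13.trna102-AlaAGC, chr13:23523281-23523353, plus strand: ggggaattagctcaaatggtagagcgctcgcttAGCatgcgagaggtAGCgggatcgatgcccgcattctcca
chr13.trna963-AlaAGC, chr13:23504810-23504882, minus strand: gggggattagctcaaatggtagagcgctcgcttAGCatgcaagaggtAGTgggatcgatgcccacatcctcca
The anticodon matched the gene name in all 15 located genes, which held 12 distinct sequences. All located AlaCGC and AlaTGC genes and a pair of AlaAGC genes, chr13.trna66 and chr13.trna71, were 72 nt long with cytosines at positions 48 and 49. The other located AlaAGC genes were 73 nt long, held A and G at positions 48 and 49, and so offered no C48 or C49. chr13.trna102 differed from chr13.trna955 by 17 edits, an identity of 76.7%, whereas chr11.trna2022 (AlaTGC) differed from chr13.trna955 (AlaCGC) by 1. The B box motif GGTTCNANNCC, searched on the gene strand alone and with no other motif, was present in 9 of the 15 located Ala genes (60%), all 72 nt long, and in 202 of 249 located tRNA genes (81.1%).

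The first comparison divided Ala genes with Pol III in WT skin from silent copies. A gene was called occupied with at least 10 reads in both WT Pol III libraries and at least 2-fold the WT input, as reads per 1000000 counts at tRNA genes (RPM) with 1 added to every count. Of the Ala genes, 13 of 398 (3.27%) were occupied, against 226 of 3283 predicted tRNA genes (6.88%). By the second WT library alone, 12 Ala genes and 239 in all were occupied, and chr13.trna68-AlaTGC was not. Members made up 12.1% of the predicted genes and 5.75% of the occupied ones. By isoacceptor, 7 of 327 AlaAGC genes (2.14%), 2 of 17 AlaCGC genes (11.8%) and 4 of 54 AlaTGC genes (7.41%) were occupied. The Pol III libraries were shallow, with 36866 and 63136 counts in WT and 95112 in NSun2-/- skin, and the inputs held 15918 and 14483 counts.

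AlaTGC held the gene with the highest Pol III signal of the members. chr11.trna2022-AlaTGC had 306 and 601 reads in the WT libraries and 1255 in the NSun2-/- library, with 3 and 4 reads in the WT and NSun2-/- inputs, 40.1-fold over the WT input. A gene of the same sequence on chromosome 5, chr5.trna1317-AlaTGC (chr5:125884620-125884691, minus strand), had 158, 219 and 437 reads over inputs of 7 and 4, which was 8.73-fold. Its neighbour chr5.trna702-AlaTGC (chr5:125889842-125889913, plus strand), which differs from that sequence by G57A, had 135, 180 and 394 reads over inputs of 6 and 4, or 8.38-fold. All 3 lay far above their inputs in every Pol III library. chr13.trna68-AlaTGC (chr13:21332814-21332885) was close to the threshold, with 26, 22 and 45 reads over inputs of 3 and 6, or 2.45-fold.

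Among AlaCGC genes, chr2.trna263 had 80 and 260 reads in the WT libraries and 446 in the NSun2-/- library over inputs of 8 and 5, 6.34-fold over the WT input. chr13.trna955-AlaCGC had 67, 86 and 123 reads over inputs of 5 and 5, or 4.81-fold. chr13.trna70-AlaCGC (chr13:21346089-21346160, plus strand), which has the identical sequence, fell just below the rule with 26, 26 and 61 reads over inputs of 5 and 3, or 1.73-fold. The same 72 nt were thus listed at an occupied and at a silent position, and since multiply matching reads had been distributed over copies by the authors, the division of reads within this pair rests on that distribution.

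Of the 7 occupied AlaAGC genes, chr5.trna110 and chr13.trna102, both of 73 nt, led. chr5.trna110 had 199 and 519 WT reads and 821 NSun2-/- reads over inputs of 5 and 6, 20.5-fold over the WT input. chr13.trna102 had 189, 349 and 561 reads over inputs of 1 and 3, or 48-fold, a ratio that rests on 1 input read. Both were above 100 reads in every Pol III library, as no input was. Lower in this order stood chr19.trna8 (chr19:3576263-3576335), with 89, 148 and 334 reads over inputs of 4 and 2, and chr3.trna29 (chr3:19528995-19529067), with 70, 156 and 253 reads over inputs of 3 and 2. chr3.trna29 and chr5.trna110 share 1 sequence. The 72-nt gene chr13.trna66 had 78, 145 and 322 reads over inputs of 2 and 5, or 13.3-fold. For chr13.trna67 and chr13.trna94 only the chromosome is known here, and they had 73, 111 and 173 reads over inputs of 9 and 5, and 40, 40 and 62 reads over inputs of 1 and 5.

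The 385 silent Ala genes had a median of 3, 4 and 4 reads in the WT 1, WT 2 and NSun2-/- Pol III libraries, and a median of 0.312-fold over the WT input. Just below the rule stood, besides chr13.trna70, chr13.trna963-AlaAGC with 22 and 32 WT reads (1.71-fold) and chr13.trna69-AlaAGC with 10 and 14 (1.60-fold). chr13.trna71-AlaAGC had 19 and 19 WT reads (1.10-fold) and chr13.trna966-AlaAGC (chr13:23492664-23492736, minus strand) had 14 and 18 (0.905-fold). These 5 were the silent genes with the highest mean WT RPM, and all lay on chromosome 13, which held 26 Ala genes, 6 of them occupied.

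The located silent copies with a sequence of their own differed from occupied ones at few bases. Positions came from the study's list of transcribed tRNA genes, which held 4 of the 385 silent copies, all with high WT signal among silent genes. They need not be typical of the other silent copies. From chr5.trna110 to chr13.trna963 there were 3 substitutions, G41A, C50T and G64A. From chr13.trna102 to chr13.trna966 there were 4, A5G, C50T, G64A and T68C. From chr13.trna66 to chr13.trna71 there were 8, G5A, G28A, C42T, C47T, C50T, A57G, G64A and C68T. C50T and G64A, which face each other in the T arm stem, were in all 3 of these silent copies and in no located occupied gene.

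**Figure D1:**
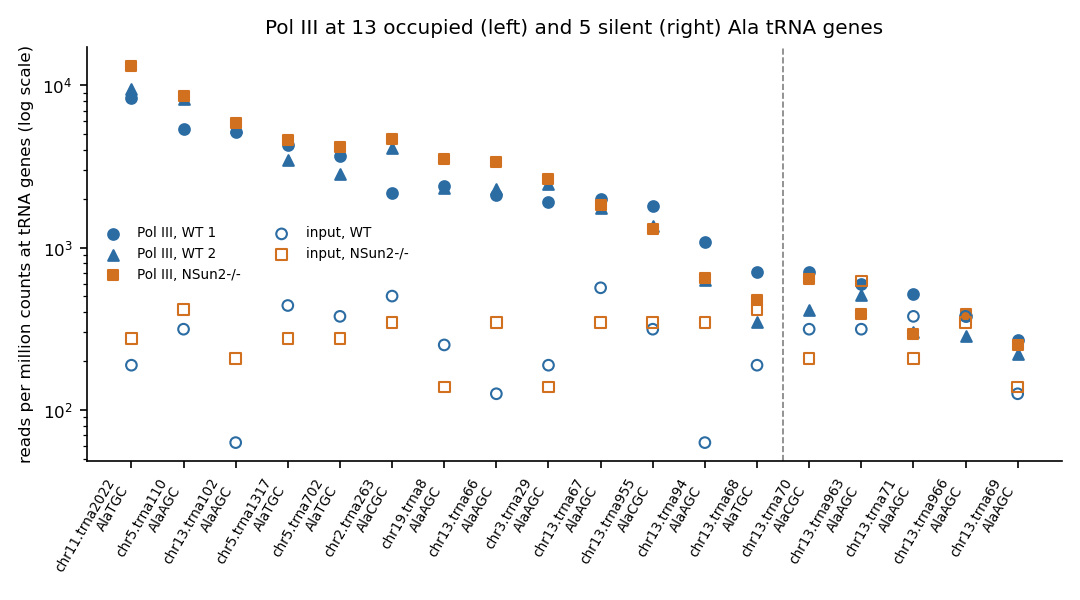
Pol III RPM (log scale) at the 13 occupied Ala genes, left of the dashed line, and at the 5 silent Ala genes with the highest WT signal, right of it. Filled symbols are the 2 WT and the 1 NSun2-/- Pol III libraries and open symbols the inputs, and the occupied genes run from chr11.trna2022-AlaTGC (40.1-fold over the WT input) down to chr13.trna68-AlaTGC (2.45-fold), which overlaps the silent genes in level.

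The share of the occupied genes in Ala reads is given as a description, since the rule that chose them used the WT Pol III libraries and the WT input. The 13 occupied genes held 51.3% and 61.6% of the Pol III counts at Ala genes in the WT libraries and 75.0% in the NSun2-/- library, against 2.60% and 2.94% in the inputs. All Ala genes together held 7.98% and 7.30% of the Pol III counts at tRNA genes in WT and 7.33% in NSun2-/- skin, and 13.8% and 13.2% in the inputs. The share of the occupied genes differed between the WT libraries too, and it was highest in the largest Pol III library and lowest in the smallest.

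As NSun2-/- skin gave 1 Pol III library, the genotypes were compared without a replicate check and without a test. Over the 13 occupied Ala genes the median log2 ratio of NSun2-/- to mean WT RPM was 0.32, with a range from -0.36 to 0.66. The median log2 ratio of the second to the first WT library was 0.0011 over the same genes, with a range from -0.96 to 0.96. The NSun2-/- value lay above both WT values at 9 genes, between them at 3 and below both at 1. Over all 226 occupied tRNA genes the medians were 0.21 for NSun2-/- against WT and 0.15 between the WT libraries. Against the second WT library alone the Ala median was 0.21. Scaled to the total over occupied tRNA genes in place of all tRNA genes, the Ala median was 0.07. At single genes the ratio between genotypes had a narrower range than that between the WT libraries. The former sets a library against a mean and the latter a library against another, so the ranges are not like measures. The median over Ala genes moved with the scaling.

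The next comparison asked whether the RNA of the 3 isoacceptors differed between WT and NSun2-/- skin. The tRNA-seq libraries held between 17352126 and 36749727 counts. In these counts a sequence that matches several genomic loci was counted several times: Ala counts were between 6.43 and 12.7 times the number of reads, and all tRNA counts between 1.11 and 1.28 times. Exact matches in the genome were used as divisors for sequences at Ala genes alone, so these ranges were not obtained alike. The totals of tRNA reads counted once, on which the later shares rest, may be too high. Counted once, Ala reads numbered 4589, 3876, 4525 and 4723 in WT and 4918, 12436, 5890 and 3461 in NSun2-/- libraries. In total skin, fewer cells that express a tRNA and less of that tRNA per cell cannot be told apart.

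Ala reads were a small part of all tRNA reads in both genotypes. Ala genes held 0.266%, 0.283%, 0.228% and 0.219% of all tRNA counts in WT and 0.247%, 0.218%, 0.238% and 0.236% in NSun2-/- libraries. The groups overlapped, with means of 0.249% ± 0.0305 and 0.235% ± 0.0123 (SD, n = 4 each, exact two-sided permutation p = 0.4, Benjamini-Hochberg adjusted p = 0.85 over 7 shares). Counted once, the shares were 0.0324%, 0.0286%, 0.0217% and 0.0249% in WT against 0.0291%, 0.0377%, 0.0293% and 0.0230% in NSun2-/- (exact permutation p = 0.514, adjusted p = 0.583 over 17 added comparisons). The direction between the means was opposite in these counts, and neither difference passed the test. Both shares include the reads nearest to tRNA Gly described below. Counted once, these were a larger part of Ala reads in every NSun2-/- library than in any WT library. Their part in the opposite direction was not tested.

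AlaAGC had 1068, 872, 758 and 747 counts per 1000000 (CPM) in WT and 736, 902, 790 and 767 in NSun2-/- libraries. AlaCGC had 905, 1118, 900 and 853 in WT and 1024, 816, 958 and 930 in NSun2-/-. AlaTGC had 687, 841, 623 and 590 in WT and 709, 457, 630 and 663 in NSun2-/-. The genotypes overlapped for all 3 isoacceptors. With edgeR, none of the 3 passed an adjusted p of 0.05 (20.0% of the 50 isoacceptor families tested did). The log2 fold changes were 0.31 for AlaAGC (SE 0.20, edgeR adjusted p = 0.28), 0.39 for AlaCGC (SE 0.17, unadjusted p = 0.0365, adjusted p = 0.12) and 0.26 for AlaTGC (SE 0.17, adjusted p = 0.28). At an unadjusted p, AlaCGC alone of the 3 was under 0.05, and DESeq2 made no Ala call. The signs depended on the scaling: with DESeq2 size factors the 3 values were 0.38, 0.44 and 0.29, and scaled to all tRNA counts -0.11, -0.02 and -0.16, where the median of all families moved from 0.01 to -0.38. With each read counted once they were 0.63, 0.58 and -0.19 (edgeR adjusted p = 0.077, 0.077 and 0.53).

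The isoacceptors were not separate measurements. Of the counts listed at AlaCGC and AlaTGC genes, 94.1% and 91.2% came from sequences also listed at another Ala isoacceptor, against 1.78% at AlaAGC genes. The most frequent sequence of this kind was a read of 22 nt, which ends before the anticodon and whose counts are multiples of 51. It is shown because it was the highest of all sequences listed at Ala genes.
Shared 5′ read of AlaCGC and AlaTGC: ggggatgtagctcagtggtaga
It averaged 448 CPM over the 8 libraries, from 318 to 585 in WT and from 250 to 584 in NSun2-/-, with a log2 fold change of 0.37 (edgeR adjusted p = 0.63). Reads of this kind, 18 to 24 nt from the first nucleotide, were between 42.3% and 60.6% of Ala counts in all libraries and between 4.96% and 15.4% of Ala reads counted once. Their families showed log2 fold changes of 0.10, 0.19 and 0.18 for AlaAGC, AlaCGC and AlaTGC, of which none passed the test, against 19.2% of 26 families. With each read counted once the values were 0.38, 0.49 and 0.49, and the lowest edgeR adjusted p was 0.31.

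**Figure D2:**
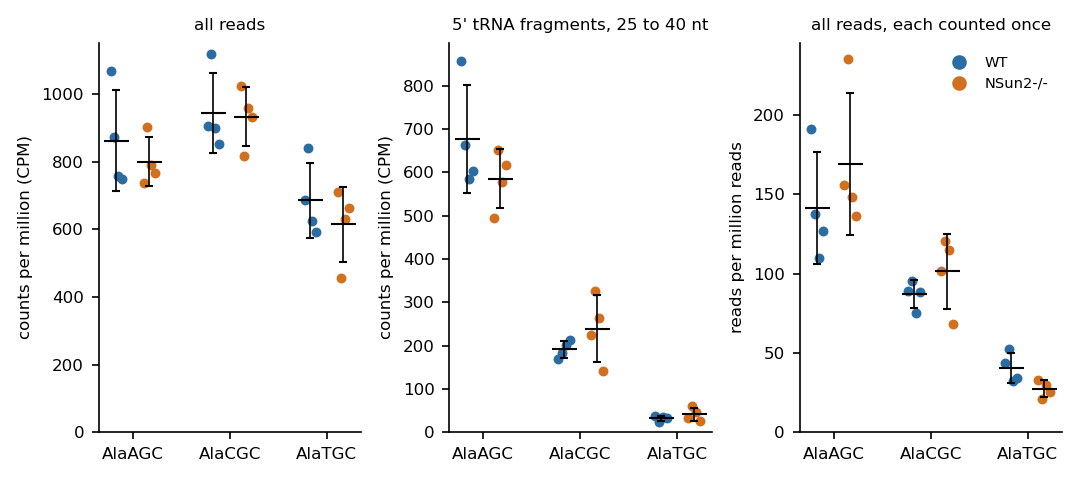
Levels of the 3 isoacceptors per tRNA-seq library, as CPM for all reads (left) and 5′ tRNA fragments (middle) and as reads per 1000000 with each read counted once (right). Points are libraries, bars the mean and SD of 4 libraries, and WT and NSun2-/- points overlap for every isoacceptor in the left panel, as with AlaAGC at 747 to 1068 against 736 to 902.

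Fragments from the 5′ end, 25 to 40 nt long, were the most frequent class of Ala reads when each was counted once. They made up 63.0%, 62.2%, 66.5% and 65.5% of Ala reads in WT and 54.4%, 54.8%, 63.6% and 58.4% in NSun2-/- libraries, with 1 NSun2-/- library inside the WT range (exact permutation p = 0.0857, adjusted p = 0.243 over 17 added comparisons). As deposited counts the shares were 40.0%, 30.7%, 36% and 38.7% in WT against 30.5%, 47.8%, 37.3% and 33.3% in NSun2-/- (exact permutation p = 0.886). The direction thus turned with the counting, and neither passed the test. The total of Ala reads counted once also holds the reads nearest to tRNA Gly, a larger part in every NSun2-/- library than in WT. The share counted once therefore depends on those reads too, and the 5′ share of the remaining Ala reads was not tested.

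Most deposited counts of 5′ fragments were listed at AlaAGC genes, with 857, 663, 584 and 602 CPM in WT and 494, 652, 577 and 617 in NSun2-/- libraries. These counts multiply reads that match several loci, and a sequence listed at several isoacceptors adds to each. They therefore do not give the origin of the reads. AlaCGC fragments had 169, 184, 201 and 212 CPM in WT and 225, 327, 263 and 143 in NSun2-/-. AlaTGC fragments had 37.0, 23.5, 36.4 and 33.1 CPM in WT and 33.7, 61.0, 46.1 and 25.5 in NSun2-/-. For AlaCGC, 3 of 4 NSun2-/- libraries lay above all WT libraries and replicate 4 below them. None of the 3 isoacceptors was called by edgeR or DESeq2, or had an unadjusted edgeR p under 0.05, where edgeR called 26.2% of 42 families. The edgeR log2 fold changes were -0.11 for AlaAGC (SE 0.23, adjusted p = 0.70), 0.40 for AlaCGC (SE 0.25, adjusted p = 0.22) and 0.43 for AlaTGC (SE 0.28, adjusted p = 0.23). Without NSun2-/- replicate 4 the values of AlaCGC and AlaTGC were 0.67 and 0.71 (edgeR adjusted p = 0.052 and 0.063).

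Among the isotypes that the study describes for 5′ fragments, a list drawn from these same samples and so not independent evidence, His rose with 1 of 1 family called and Val with 2 of 3, at median log2 fold changes of 1.14 and 1.33. No family of Asp, Glu, Gly or Lys passed the test, with medians of -0.68, 0.37, -0.16 and -0.47, and none of the 3 Ala families, at a median of 0.40. The median over all 42 families was 0.04.

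The fragments themselves differed between the 2 forms of the genes. The most frequent 5′ fragments are given below, with substituted bases in capitals.
AlaAGC, 73-nt form, exact: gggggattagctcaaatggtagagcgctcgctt
AlaAGC, 73-nt form, G26T: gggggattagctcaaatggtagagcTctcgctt
AlaAGC, 73-nt form, 1 base missing: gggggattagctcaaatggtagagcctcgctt
AlaCGC and AlaAGC, 72-nt form, 2 bases missing: gggggtgtagctcagtggtagagcgtgctt
AlaTGC and AlaCGC, 72-nt form, 2 bases missing: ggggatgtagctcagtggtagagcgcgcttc
The 3 fragments of the 73-nt form averaged 102, 100 and 93.7 CPM over the 8 libraries, each listed at 7 AlaAGC genes, and ended at or just before position 33, next to the anticodon. Their log2 fold changes were 0.07, 0.27 and -0.10, and the lowest edgeR adjusted p was 0.764. The fragment named for AlaCGC averaged 61.5 CPM (0.64, edgeR adjusted p = 0.66), and that named for AlaTGC 45.1 CPM (0.47, edgeR adjusted p = 0.66). The last 2 are the highest 5′ fragments listed at AlaCGC and at AlaTGC genes, and both were also listed at another isoacceptor. By sequence, the one named for AlaCGC was nearest to AlaAGC and was placed on chr13.trna66. The one named for AlaTGC was nearest to AlaCGC and was placed on chr13.trna70.

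Reads of each form were placed on the 15 located genes and counted once. 5′ fragments on 73-nt genes came to 115, 92.8, 73.8 and 76.6 reads per 1000000 in WT and 61.2, 73.4, 71.7 and 78.0 in NSun2-/- libraries. On 72-nt genes they came to 88.8, 84.8, 70.5 and 86.7 in WT and 97.0, 133, 115 and 56.0 in NSun2-/-. The 72-nt form, which holds C48 and C49, was thus 43.5%, 47.7%, 48.9% and 53.1% of these fragments in WT and 61.3%, 64.4%, 61.6% and 41.8% in NSun2-/- skin. In 3 NSun2-/- libraries the share was above every WT library and in replicate 4 below them (means 48.3% ± 3.95 and 57.3% ± 10.4, n = 4 each, exact permutation p = 0.143, adjusted p = 0.347).

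Where the 5′ fragments ended also differed by form. On 73-nt genes, 65.5%, 64.3%, 67.2% and 69.3% of fragments in WT and 61.7%, 61.2%, 59.1% and 65.3% in NSun2-/- libraries ended at position 33, the last base before the anticodon. Another 24.8%, 16.6%, 22.4% and 19.2% in WT and 26.1%, 31.6%, 29.6% and 23.3% in NSun2-/- ended at position 32. On 72-nt genes the ends were spread from position 30 to 36, and position 33 held 22.4% to 29.7% in WT and 23.5% to 33.4% in NSun2-/-, the largest share in every library but NSun2-/- replicate 2, where position 31 held 26%. The ends of the 73-nt form were thus gathered at 2 positions, and those of the 72-nt form were not.

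**Figure D3:**
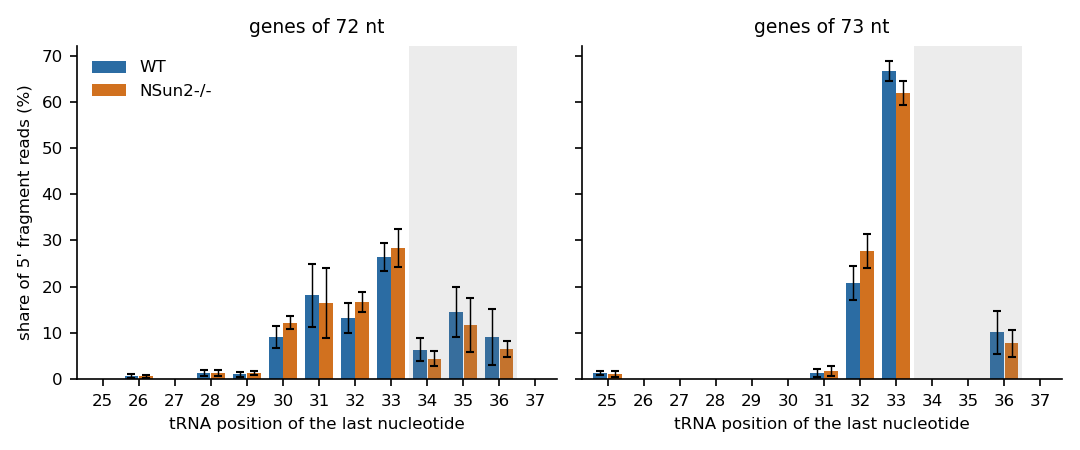
Share of 5′ tRNA fragment reads (percent, each read counted once) by the tRNA position of their last nucleotide, for 72-nt genes (left) and 73-nt genes (right). Bars are means and error bars SDs of 4 libraries per genotype, the grey band marks the anticodon, and on 73-nt genes position 33 holds 66.6% of WT and 61.8% of NSun2-/- fragments.

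Fragments with the 3′ CCA end, which is added after transcription and marks a processed 3′ end, were few at 25 to 40 nt. AlaAGC had 23.4, 11.9, 2.56 and 5.39 CPM of them in WT and 11.0, 2.18, 6.34 and 5.70 in NSun2-/- libraries. The groups overlapped, with NSun2-/- replicate 2 the lowest and WT replicate 1 the highest. These fragments made up 0.898%, 0.432%, 0.116% and 0.287% of Ala counts in WT and 0.447%, 0.103%, 0.270% and 0.251% in NSun2-/- (exact permutation p = 0.4, adjusted p = 0.85). AlaCGC had no such read in any library, and AlaTGC between 0 and 10 reads per library, so that only AlaAGC entered the edgeR test. AlaAGC gave a log2 fold change of 0.72 (SE 0.54, adjusted p = 0.38), where 15.4% of 39 families were called. That sign also depended on the scaling: scaled to all tRNA counts the AlaAGC value was -0.77, where the median over families moved from 0.03 to -1.56. The call depended on 1 library: without WT replicate 1, which had the highest level, the log2 fold change was 1.53 (edgeR adjusted p = 0.0286). With all lengths up to 40 nt it was 1.03 (edgeR adjusted p = 0.0083), and 0.77 with each of those reads counted once (edgeR adjusted p = 0.0594).

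The highest 3′ sequences are given below, with CCA and substituted bases in capitals.
AlaAGC, 25 to 40 nt, A58T: cgggatcgTtgcccgcatcctccaCCA
AlaTGC, 25 to 40 nt, G57A: cccgggttcAatccccggcacctccaCCA
AlaAGC, 18 to 24 nt, A58T: tcgTtgcccgcatcctccaCCA
AlaTGC, 18 to 24 nt: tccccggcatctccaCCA
Substitutions are read against the gene on which the read was placed. The longer read named for AlaTGC was listed at AlaTGC but was nearest to AlaAGC by sequence. The longer 2 averaged 1.80 and 0.28 CPM, and the shorter 2 averaged 15.7 and 7.87 CPM. The short AlaTGC read numbered 94, 104, 94 and 153 reads in WT and 67, 85, 67 and 18 in NSun2-/- libraries, all NSun2-/- values below all WT values before scaling to depth. Its CPM of 10.5, 12, 7.75 and 13.6 in WT and 6.74, 4.63, 5.66 and 2.05 in NSun2-/- did not overlap either, with a log2 fold change of -0.77 (SE 0.45, edgeR adjusted p = 0.50).

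Over all 3′ CCA reads up to 40 nt, 72-nt genes took 53.5%, 56.2%, 56.4% and 60.7% in WT and 41.4%, 51.0%, 46.2% and 46.6% in NSun2-/- libraries. All 4 NSun2-/- values lay below all 4 WT values, with means of 56.7% ± 3.00 and 46.3% ± 3.94 (SD, n = 4 each). The exact permutation p was 0.0286, the smallest that 4 against 4 libraries can give, and 0.243 after adjustment over the 17 added comparisons, so the difference did not pass the correction. 3′ reads of 72-nt genes came to 20.0, 22.3, 12 and 16.2 reads per 1000000 in WT and 12.4, 5.12, 8.76 and 4.78 in NSun2-/-, and those of 73-nt genes to 17.4, 17.3, 9.24 and 10.5 in WT and 17.6, 4.92, 10.2 and 5.48 in NSun2-/-. On 72-nt genes the most frequent start of 3′ reads was position 59, with 30.6% to 59.6% of them over the 8 libraries. On 73-nt genes it was position 55, with 34% to 76.7%.

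Mature Ala tRNAs, whose reads end in CCA and span 90% or more of the gene, were close to the limit of this sequencing. They numbered 11, 6, 12 and 9 reads in WT and 9, 15, 9 and 7 in NSun2-/- libraries, counted once. As a share of Ala counts they were 0.0942%, 0.0550%, 0.0668% and 0.0468% in WT and 0.0550%, 0.050%, 0.0320% and 0.0169% in NSun2-/- (exact permutation p = 0.143, adjusted p = 0.85). The highest mature sequences follow, with the substituted base and CCA in capitals.
AlaAGC, A34G: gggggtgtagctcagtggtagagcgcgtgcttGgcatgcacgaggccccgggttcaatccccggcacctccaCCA
AlaTGC: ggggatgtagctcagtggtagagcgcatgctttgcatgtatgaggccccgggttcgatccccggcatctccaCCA
The AlaAGC read numbered 3, 0, 2 and 0 reads in WT and 2, 2, 1 and 0 in NSun2-/- libraries, and the AlaTGC read 7, 3, 9 and 7 in WT and 7, 12, 8 and 7 in NSun2-/-. No mature AlaCGC read was listed in any library. In edgeR, AlaAGC had a log2 fold change of -0.05 (SE 1.03, adjusted p = 0.98), no family of 18 was called (0.0%), and a difference in mature Ala tRNA was not detectable at this depth.

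Reads differed from the gene at a few positions where eukaryotic tRNAs carry modified bases. At position 34, where AlaAGC has inosine, which is read as G, all reads over 73-nt AlaAGC genes had G (108, 221, 138 and 137 reads in WT and 106, 118, 142 and 122 in NSun2-/-). All 4 to 20 reads per library over 72-nt AlaAGC genes also had G. Over AlaTGC genes, none of 73 to 176 reads per library differed from T34. This base is partly fixed by the listing, since chr11.trna2022 (AlaTGC) and chr13.trna955 (AlaCGC) differ at position 34 alone. A read with C34 matches the AlaCGC gene better, so the value is no measure of change at T34. Reads placed on AlaCGC genes had G, not the C of the gene, in 100%, 98.9%, 93.3% and 97.9% of 39, 189, 75 and 191 reads in WT and in 96.4%, 94.2%, 95.7% and 98.4% of 138, 191, 139 and 63 reads in NSun2-/- (exact permutation p = 0.457, adjusted p = 0.555). Few reads of the AlaCGC set that reach the anticodon thus held CGC as the gene has it. Placement used only located genes of the isoacceptors at which a read was listed, even where another isoacceptor was nearer by sequence. A read of an Ala gene without a position is likewise set on such a located gene.

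At position 26, G was replaced or missing in 60.7%, 62.0%, 61.6% and 63.3% of reads over 73-nt genes in WT and in 64.2%, 62.7%, 64.0% and 65% in NSun2-/- libraries (exact permutation p = 0.0571, adjusted p = 0.243). The replacing base was most often T, at 34.3% to 40.5% of reads. Over 72-nt genes, reads differed at position 26 in 14.6%, 8.94%, 16.1% and 11.3% in WT and 13.6%, 14.3%, 15.4% and 18.3% in NSun2-/-, and a missing base could not be set on 1 position there, since the bases around it repeat. As scored, the 73-nt form differed from its gene at position 26 in a larger share of reads than the 72-nt form in every library. A 72-nt read whose gap was set beside position 26 can count as unchanged there. The 72-nt share may thus be too low by an unknown amount, and the forms are not strictly comparable.

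Position 58 in the T loop showed the same order. Reads over 73-nt genes differed from A58 in 97.1%, 97.0%, 94.8% and 95.9% in WT and 92.1%, 92.5%, 94.1% and 95.1% in NSun2-/- libraries (exact permutation p = 0.0571, adjusted p = 0.243), mostly as T and G. Over 72-nt genes the share was between 0% and 3.77% in all libraries. There, 30.6% to 59.6% of 3′ CCA reads started at position 59 and so did not reach position 58. The 72-nt share thus describes only the reads that extend past this base, and the forms are not sampled alike. At position 37, beside the anticodon, reads over 72-nt genes differed from A in 83.6%, 89.6%, 83.5% and 88.5% in WT and 84.0%, 76.8%, 84.8% and 84.4% in NSun2-/- (exact permutation p = 0.286, adjusted p = 0.442), and all 1 to 33 reads per library over 73-nt genes had T.

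A further class of reads listed at Ala genes was nearer to tRNA Gly. The main one, of 28 nt, is shown because it was the highest of this class.
Listed at AlaAGC, nearest to GlyGCC: gcattgtggttcagtggtagaattctcg
It numbered 313, 57, 151 and 254 reads in WT and 637, 2383, 581 and 343 in NSun2-/- libraries, all NSun2-/- values above all WT values, at 17.4, 3.28, 6.22 and 11.3 CPM in WT and 32.1, 64.8, 24.6 and 19.5 in NSun2-/-. Its log2 fold change was 2.48 (SE 0.71, unadjusted p = 0.00706, edgeR adjusted p = 0.13). There were 13 such sequences among the 273, and they made up 12.3%, 2.71%, 5.59% and 10.2% of Ala reads counted once in WT and 21.1%, 36.3%, 17.1% and 16.8% in NSun2-/-. Without them, AlaAGC held 0.103%, 0.0863%, 0.0744% and 0.0718% of all tRNA counts in WT and 0.0675%, 0.0750%, 0.0738% and 0.0728% in NSun2-/-. What these reads add to AlaAGC is thus largest in the library of NSun2-/- replicate 2.

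**Figure D4:**
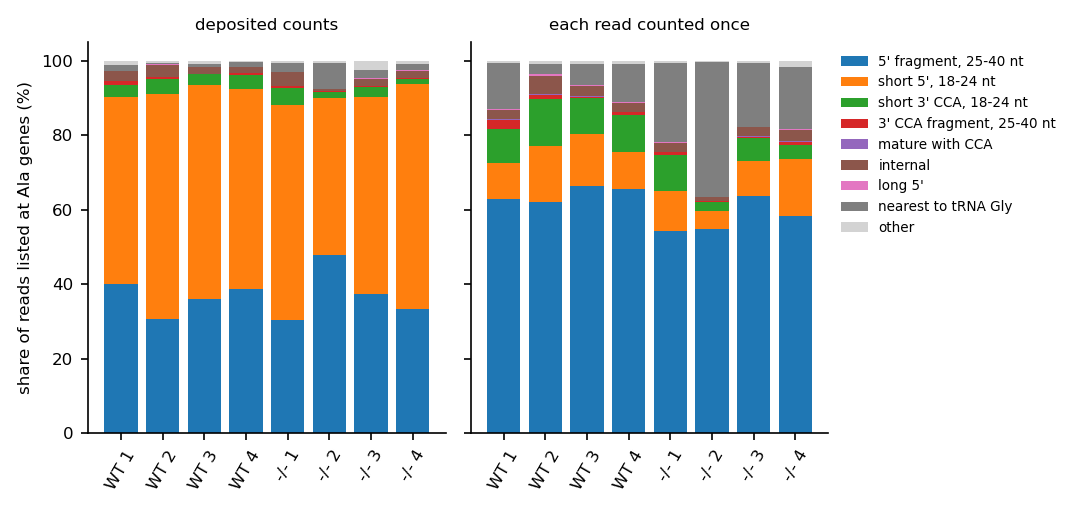
Share of the reads listed at Ala genes (percent) by class in each tRNA-seq library, as deposited counts (left) and with each read counted once (right). Short 5′ reads fill 42.3% to 60.6% of deposited counts, whereas counted once 5′ fragments of 25 to 40 nt fill 54.4% to 66.5%, and the reads nearest to tRNA Gly are higher in every NSun2-/- library (16.8% to 36.3%) than in WT (2.71% to 12.3%).

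The edgeR tests over all tRNA genes and all read sequences gave no Ala call, and DESeq2 gave some. Of 352 genes tested, edgeR called 46 (13.1%), and of the 29 Ala genes among them, which held 22 distinct sets of counts, it called 0, with 2 at an unadjusted p under 0.05. DESeq2, which called 20.3% of the 335 genes with an adjusted p, called 2, the occupied gene chr2.trna263-AlaCGC and the silent copy chr6.trna152-AlaAGC. chr2.trna263 had 16174, 19372, 21769 and 19051 counts in WT and 20271, 29717, 22599 and 16291 in NSun2-/- libraries, which overlapped (log2 fold change 0.42, edgeR adjusted p = 0.16). chr6.trna152 had 723, 151, 345 and 660 counts in WT and 1212, 5568, 1224 and 670 in NSun2-/-, where 3 NSun2-/- libraries lay above all WT libraries and replicate 4 within their range (2.25, edgeR adjusted p = 0.055). Of 12863 read sequences edgeR called 316 (2.46%), and 0 of the 146 Ala sequences tested, 18 of them at an unadjusted p under 0.05. DESeq2 called 8 Ala sequences, 4 of them nearest to tRNA Gly, and 9.55% of all 12593 sequences with an adjusted p.

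Occupancy by Pol III and listing in tRNA-seq did not coincide gene by gene. Of the 13 occupied Ala genes, 10 had tRNA-seq counts, while chr11.trna2022, chr13.trna67 and chr13.trna68 were listed at none, and 60 silent genes had counts. chr5.trna1317-AlaTGC, which has the same sequence as chr11.trna2022, held 12021, 14376, 14807 and 12984 counts in WT and 13739, 16024, 14205 and 11437 in NSun2-/- libraries. chr13.trna955-AlaCGC held 46 counts in all 8 libraries together. The silent genes with the most counts were chr13.trna96, chr13.trna963 and chr13.trna966, which had identical counts and the same as occupied chr13.trna94, followed by chr7.trna1108 and chr6.trna152, all AlaAGC. Silent genes held between 14.8% and 25.3% of Ala counts. From sequences not also listed at an occupied gene they held 3.00%, 0.849%, 2.16% and 1.77% in WT and 3.46%, 7.97%, 4.96% and 2.64% in NSun2-/-, and from those not near to tRNA Gly either, between 0.425% and 2.76% over all 8 libraries.

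Over the 8 libraries, the isoacceptor families outside Ala whose log2 CPM was most like that of all Ala reads were SerGCT (r = 0.879), LeuTAA (r = 0.808) and AsnGTT (r = 0.780), of 45 compared. These points share library totals and are given as a description.

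The last comparison concerned m5C at Ala tRNAs. Bisulphite treatment converts unmethylated cytosine, and the deposited values are the percent of unconverted reads for cytosines with at least 10 reads. The libraries listed 110324 to 665049 cytosines each. Keratinocyte genes (Krt5, 293 to 433 listed cytosines per library, and Krt14, Krt1 and Krt10), fibroblast genes (Col1a1, 1374 to 1721, and Col1a2 and Col3a1) and muscle genes (Acta1, 269 to 406, and Ckm) were listed in all 8 libraries, and Alb of liver and Snap25 of brain in none, as the label of total skin has it. Nsun2 itself had 31, 23, 48 and 43 listed cytosines in the WT libraries and 0 in all 4 NSun2-/- libraries.

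Ala genes were thinly covered. The WT libraries listed 33, 0, 28 and 46 Ala cytosines and the NSun2-/- libraries 105, 23, 65 and 78, with median depths of 13 to 18 reads, against 46 to 91.5 over all listed tRNA cytosines. Intervals below are exact binomial 95% intervals, and cover counting error only, as these reads carry no molecular identifiers. With at least 3 libraries of each genotype, 122736 cytosines were tested in edgeR and 320 (0.261%) were called at an adjusted p of 0.05 and 10 percentage points. The tested cytosines included 11 of Ala genes, 10 in chr3.trna29-AlaAGC and 1 at position 60 of chr13.trna955-AlaCGC. Of these, 0 were called by edgeR or limma, and 1 had an unadjusted p under 0.05 in edgeR. This was position 60, with means of 23.6% in WT and 54.5% in NSun2-/- (edgeR adjusted p = 1).

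chr13.trna955-AlaCGC was the Ala gene with the most data at C49 (chr13:23530590). Its sequence is identical to that of chr13.trna70-AlaCGC. The AlaTGC genes chr11.trna2022 and chr5.trna1317 share 1 sequence, which differs from it only in the first anticodon base, T against C. Conversion of an unmethylated C to T removes that difference. chr3.trna29 and chr5.trna110 also share 1 sequence. The genes given are those at whose positions the cytosines were listed, and reads within the gene cannot tell such copies apart. C49 was unconverted in 100% of 19 reads in WT 1 (interval 82.4% to 100%) and 96.4% of 28 reads in WT 4 (81.7% to 99.9%). In NSun2-/- libraries it was unconverted in 64.0% of 25 reads (42.5% to 82.0%), 50.0% of 14 (23.0% to 77.0%), 50.0% of 14 and 77.8% of 18 (52.4% to 93.6%). Both WT values lay above all NSun2-/- values, and the means differed by -37.8 percentage points (NSun2-/- minus WT). The exact two-sided permutation p was 0.0667 over 15 assignments, the smallest that 2 against 4 libraries allow. With at least 2 libraries of each genotype, 177528 cytosines were tested and edgeR called 333 (0.188%) and 0 of 40 Ala cytosines, 3 of them at an unadjusted p under 0.05. C49 was among these (unadjusted p = 0.0026, edgeR adjusted p = 0.65, limma adjusted p = 0.30).

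The other 12 cytosines of the same 3′ region had the opposite order of means. Their mean was 7.37% in WT 1 and 37.9% in WT 4, and 52.6%, 58.9%, 28.9% and 55.3% in NSun2-/- libraries (exact permutation p = 0.133). C49 exceeded them by 92.6 and 58.5 percentage points in WT and by 11.4, -8.92, 21.1 and 22.5 in NSun2-/- (means 75.6 and 11.5, exact permutation p = 0.0667). In the 5′ part of the gene, 4 cytosines listed in NSun2-/- libraries 1, 3 and 4 were between 0% and 36.4%. C49 thus stood out from its neighbours in both WT libraries and lay among or near them in NSun2-/- libraries, in which the neighbours themselves were often unconverted. Whether incomplete conversion plays a part in these levels was not tested.

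C48 and C50 of chr13.trna955 did not show the pattern of C49. C48 was at 5.26% and 35.7% in WT 1 and WT 4 and at 52.2%, 60.0%, 15.4% and 43.8% in NSun2-/-. C50 was at 5.26% and 42.3% in WT and 45.8%, 57.1%, 41.7% and 55.6% in NSun2-/-. At both positions, 3 of 4 NSun2-/- libraries lay above both WT libraries.

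Other 72-nt genes had C49 in few libraries. In chr11.trna2022-AlaTGC, C49 (chr11:48647955) was at 93.3% of 15 reads in WT 4 (68.1% to 99.8%), where its other 12 listed cytosines averaged 27.9%. In NSun2-/- 1 it was at 83.3% of 12 reads (51.6% to 97.9%), where its other 6 averaged 63.7%. With 1 library a genotype this allows no test, and the intervals overlap. C48 and C50 of that gene were at 26.7% and 33.3% in WT 4 and 60.0% and 54.5% in NSun2-/- 1.

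In the NSun2-/- libraries alone, C49 of chr5.trna1317-AlaTGC was at 69.2% of 13 reads (38.6% to 90.9%) in replicate 1, with C48 at 58.3% and C50 at 41.7%. C49 of chr13.trna66-AlaAGC was at 45.5% of 11 reads (16.7% to 76.6%) in replicate 1, with C48 at 36.4% and C50 at 45.5%, and C50 was at 40.0% of 10 reads in replicate 4. C48 of chr2.trna263-AlaCGC was at 66.7% of 12 reads in replicate 3. For these genes no WT library listed a cytosine at positions 48 to 50, so no comparison was possible.

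The 73-nt AlaAGC genes listed here had C50 but no C48 or C49, and were low at C50 in both genotypes. In chr3.trna29, C50 (chr3:19529044) was at 0%, 16.7% and 7.14% in WT 1, 3 and 4 (12, 18 and 14 reads) and 11.1%, 16.7% and 2.63% in NSun2-/- 1, 3 and 4 (45, 36 and 38 reads), with an edgeR adjusted p of 1. In chr5.trna110 it was at 0% and 7.14% in WT 3 and 4 and 7.69%, 0%, 8.0% and 4.35% in NSun2-/-. In chr19.trna8 it was at 0% and 8.33% in WT 1 and 3 and 0%, 4.55% and 5.41% in NSun2-/- 1, 3 and 4. chr13.trna102 had 6.25% of 16 reads in NSun2-/- 1. A share of 0% rests here on 10 to 33 reads, and the upper ends of the exact intervals run from 10.6% to 30.8%.

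The level over all listed cytosines also divided by gene form. On 72-nt genes the median was 28.3% in WT (40 values at 2 genes) and 45.8% in NSun2-/- (140 values at 5 genes). On 73-nt genes it was 6.67% in WT (67 values at 3 genes) and 2.63% in NSun2-/- (131 values at 6 genes). In WT no value of a 73-nt gene exceeded 16.7%, and 26 of the 40 values of 72-nt genes were above 20%, 24 of them in WT 4. The values of 1 gene and library share reads, and the sets of genes differ between genotypes, so these medians are a description.

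**Figure D5:**
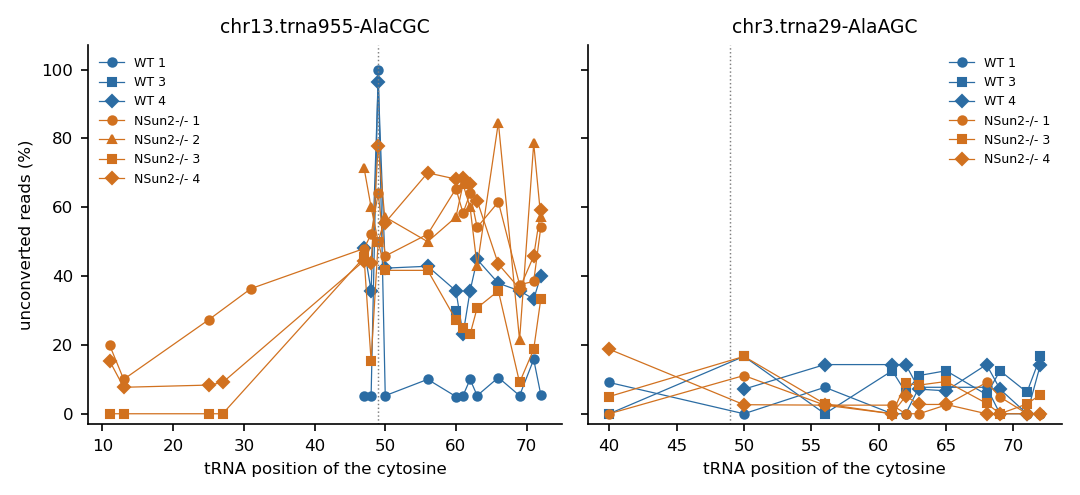
Unconverted reads (percent) by tRNA position of the cytosine in chr13.trna955-AlaCGC (left, 72 nt) and chr3.trna29-AlaAGC (right, 73 nt), 1 line per bisulphite library, with position 49 dotted. In chr13.trna955 the WT libraries reach 100% and 96.4% at C49 against 50.0% to 77.8% in NSun2-/-, and in chr3.trna29, which has no C49, no value exceeds 18.8%.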

How the data were processed

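Per the labels, RNA and chromatin came from total mouse back skin, in 4 WT and 4 NSun2-/- libraries for bisulphite sequencing and tRNA-seq and 2 WT, 1 NSun2-/- and 2 input libraries for Pol III ChIP-seq. Groups were taken from the sample labels. The members and all lists were chosen with earlier results of these data known.

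The authors aligned tRNA-seq and Pol III reads to mm9 with Bowtie, distributed multiply matching reads over their loci, realigned reads without a match after trimming CCA ends, and deposited whole-number counts per tRNA gene, and for tRNA-seq per read sequence, without scaling. Bisulphite reads were aligned with Bismark 0.7.6, and the authors deposited read counts, unconverted and converted, and the percent unconverted of every cytosine that reached 10 reads. Positions of tRNA genes were those of the study's list of transcribed tRNA genes, and sequences were read from mm9 (NCBIM37).

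For each sequence, counts were summed over all genes listing it, and divided by the common factor of its 8 counts where reads were counted once. For 71 sequences listed at Ala genes, the number of exact matches in mm9 was the divisor in its place. Exact matches were sought for sequences at Ala genes alone, so other tRNA sequences were divided by the common factor only. Reads were placed on located genes of the families at which they were listed. Placement used edlib 1.3.9.post1 at up to 4 edits (2 for reads of 18 to 24 nt), gaps included. The nearest gene over all families was recorded apart from this placement. Families, genes, sequences and cytosines were fitted over the whole tables with edgeR 4.0.16 (quasi-likelihood test, TMM, filterByExpr, Benjamini-Hochberg adjusted p under 0.05) in R 4.3.3, with DESeq2 1.42.0 and limma 3.58.1 as alternatives. Cytosines needed 10 reads in 3 libraries of each genotype, or in 2 as an alternative. Single values per library were tested by exact permutation (two-sided, all 70 assignments, smallest p 0.0286), of 7 planned and 17 added comparisons, in Python 3.11.15 with scipy 1.17.1 and pandas 2.3.3. The fits were tested on simulated data.

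Named were all occupied Ala genes, the 5 silent ones highest in Pol III signal and the 5 highest in tRNA-seq, per isoacceptor the highest 5′, 3′ and mature sequence, all cytosines at positions 48 to 50, and the 3 families most like Ala. Further sequences, the gene forms, the read bases and the reads near to tRNA Gly were added after their values had been seen. Alternatives covered scaling, filters, tests, fragment limits, the Pol III thresholds, the replicate block and leaving out single libraries. No column of the tables was left unused.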

Additional observations from a re-analysis of the deposited data

Results flagged for a closer look

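In 77 groups of 4 libraries examined for a library far from the others, 2 held one (2.60%), where chance alone gives about 1 in 20 groups. NSun2-/- replicate 4 had 41.8% of its 5′ tRNA fragment reads on 72-nt Ala genes, against 61.3% to 64.4% in the other NSun2-/- libraries, a gap that was 0.862 of the range. NSun2-/- replicate 2 had 76.8% of reads that differed from A at position 37 of 72-nt genes, against 84.0% to 84.8% in the others, a gap of 0.889 of the range.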

How the results depend on the processing

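Over 26 results and 332 alternatives, 299 were classed as unchanged. For fold changes and shares this means the same direction and call, and for numbers of calls the same number. For the number of occupied Ala genes, the Pol III ratio and the C49 difference, it means a value within a set margin. The 11 and 18 occupied genes given below were thus classed as unchanged. Scaled to all tRNA counts without TMM, the log2 fold changes of all reads were -0.11, -0.019 and -0.16 for AlaAGC, AlaCGC and AlaTGC, and that of AlaAGC 3′ CCA fragments was -0.77. With each read counted once, all reads of AlaAGC, AlaCGC and AlaTGC gave 0.63, 0.58 and -0.19, the shares of all tRNA counts of Ala, AlaAGC and AlaCGC differed by 0.0028, 0.0028 and 0.0014 percentage points (NSun2-/- minus WT), and the 5′ fragment share of Ala counts by -6.49. That share differed by -0.024 at 30 to 36 nt and -0.23 without mismatches. 5′ fragments of AlaAGC without gaps gave 0.0097, 3′ fragments of AlaAGC at all lengths up to 40 nt 1.03 (1 Ala call), and mature AlaAGC 0.31 with DESeq2 size factors, 0.34 with DESeq2, -1.27 scaled to all tRNA counts and -0.60 with the replicate block. DESeq2 called 2 Ala genes and 8 Ala sequences. The median Pol III ratio was 0.068 scaled to occupied genes. The causes were not tested. Of occupied Ala genes, 11 remained at 4-fold over input and 18 passed without the input condition.

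With each library left out in turn, values ranged as follows: all reads 0.04 to 0.58 for AlaAGC; 5′ fragments -0.16 to 0.048 for AlaAGC, 0.25 to 0.67 for AlaCGC and 0.23 to 0.71 for AlaTGC (both highest without NSun2-/- replicate 4); 3′ fragments of AlaAGC 0.43 to 1.53, with 0 to 1 call (without WT replicate 1); mature AlaAGC -0.71 to 0.36; Ala genes called 0 to 1 (chr9.trna898, without NSun2-/- replicate 3); Ala sequences called 0 to 1 (without WT replicate 1). The 5′ share of Ala counts ranged from -2.68 to 3.08 points, turning without WT replicate 2 or NSun2-/- replicate 2, the AlaAGC share from -0.0100 to 0.00065 and the AlaCGC share from -0.0043 to 0.0046. Occupied Ala genes numbered 12 to 14, the Pol III median was 0.21 to 0.27, and the C49 difference -43.5 to -34.3 points. Without WT replicate 1, 3 or 4, or at a coverage of 30 reads, no Ala cytosine could be tested.

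Replicate numbers did not pair the samples: deviations from the group means of same-numbered libraries correlated at 0.0279, -0.334, -0.0762 and -0.411 in tRNA-seq and at -0.0596, -0.134, 0.309 and -0.151 in bisulphite data. The replicate block changed no call, with log2 fold changes of 0.31, 0.40 and 0.25 for all reads of AlaAGC, AlaCGC and AlaTGC (edgeR adjusted p = 0.39, 0.18 and 0.39).

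Depth limits the mature reads (6 to 15 per library), the 3′ CCA fragments and the cytosines (median 13 to 18 reads). Few library pairs cover the same cytosine, and the single NSun2-/- Pol III library allows no test.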
